A study of Mus musculus with 16 samples.

Results

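Cytochrome P450 genes encode heme enzymes that insert an oxygen atom into drugs, plant compounds, steroids, bile acids, retinoids, vitamin D and fatty acids. Genes were taken as members when their name was Cyp followed by a family number, a letter and a gene number, and when at least 10 reads were counted on them in at least 4 of the 16 libraries. Of 94 names of this form among the 41740 listed, 39 met the rule. They comprised 25 genes of families 1 to 3, 9 genes of family 4 and 5 genes of other families (Cyp7b1, Cyp20a1, Cyp26b1, Cyp27a1 and Cyp39a1). The members were selected on their read counts over all libraries, so the levels below are a description. The members are the expressed genes with names of this form, and not all P450 genes that the ileum expressed. Cyp51, Tbxas1 and Ptgis, for example, have names of another form and are given with the lists below.

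Ileal whole-wall total RNA was sequenced from male mice at 20 weeks of age, with 1 mouse per library. All mice carried a floxed insulin receptor gene and were STAM mice, made diabetic by low-dose streptozotocin on day 2 after birth and fed a high-fat diet starting in week 4. The 4 mice of Control-STAM-nonINS lacked Villin-Cre (spelled Vilin-Cre in the labels) and received saline. The 6 mice of Control-STAM-INS were of that genotype and received insulin degludec 2 times a day from 6 weeks of age, at up to 12 U/kg. The libraries labelled ieIRKO-STAM-INS (n = 6) came from insulin-treated mice carrying Villin-Cre, which acts in the intestinal epithelium and leaves the receptor intact in the rest of the wall. Without insulin, the targeted gene Insr had a mean of 105 ± 12.3 CPM (SD, n = 4), where CPM is the read count scaled to a common library size after TMM. With insulin, the mean was 62.7 ± 10.1 CPM in the control genotype and 67.2 ± 13.4 CPM under the knockout label (SD, n = 6 each). These 2 insulin-treated groups differed by a log2 fold change of 0.10 (SE 0.13, edgeR adjusted p = 0.805), so the count of Insr did not mark the knockout label, and directions that rest on this label are given for the label.

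Between 13288018 and 22215382 reads were counted per library. Summed enterocyte markers ran from 18047 to 29544 CPM in Control-STAM-nonINS (median 23196), from 13889 to 27656 in Control-STAM-INS (median 20077) and from 5176 to 28095 in the libraries labelled ieIRKO-STAM-INS (median 14364), of which 5 of 6 were at 15725 or less. The summed markers of pancreatic acinar cells and of colon epithelium did not exceed 0.536 CPM in any library. Hepatocyte markers summed to at most 16.7 CPM, which bears on P450 genes because the liver is their richest source. Control-STAM-nonINS replicate 4 and ieIRKO-STAM-INS replicate 5 were lowest in Alpi, the alkaline phosphatase of enterocytes, at 84.7 and 70.4 CPM against 208 to 547 in the others. Other enterocyte markers did not all follow Alpi in the first of these, which was the second highest of the 16 libraries in Fabp1 and Sis, at 109 and 5553 CPM, and the ninth in the summed markers. The second was the lowest or next to lowest in each of the 8 markers. The first was also the highest of the 16 libraries in summed endothelium and macrophage markers, at 183 and 173 CPM. It was the lowest in summed crypt cell markers, at 372 CPM. In summed markers of the proximal small intestine it ranked 15 of 16, at 440 CPM, and the second ranked 16, at 169 CPM. Summed Paneth cell markers without defensins were 723 to 1341 CPM in the libraries labelled ieIRKO-STAM-INS and 2226 to 4696 in the other libraries. Summed B and plasma cell markers were 1571 to 3111 CPM in the libraries labelled ieIRKO-STAM-INS and 715 to 1768 in the others. The part of these differences in the P450 results was not tested. In whole-wall RNA, fewer cells of a type and less RNA per cell cannot be told apart.

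P450 enzymes of the endoplasmic reticulum receive electrons from Por, the P450 reductase, while mitochondrial members such as Cyp27a1 use ferredoxin. In the small intestine, families 1 to 3 meet drugs and food compounds before they reach the liver, and their genes are controlled by ligand-activated regulators such as the aryl hydrocarbon receptor (Ahr) and the pregnane X receptor (Nr1i2). Family 4 hydroxylates the end carbon of fatty acids and eicosanoids, and several of its genes are targets of Ppara. The remaining members act on oxysterols, bile acid precursors and retinoic acid, except Cyp20a1, whose substrate is not settled.

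The RefSeq promoter table (build GRCm38.p6) held 31 of the 39 members. The 250 bases before the start are shown for the 5 genes lower with insulin that the table held and for the 1 gene that was higher. Capitals mark TATAAA, which is TTTATA when read from the other strand, and GCGTG, the core of the AhR element, which is CACGC when read from the other strand.
Cyp2c66 (chr19:39113648-39113897, plus strand): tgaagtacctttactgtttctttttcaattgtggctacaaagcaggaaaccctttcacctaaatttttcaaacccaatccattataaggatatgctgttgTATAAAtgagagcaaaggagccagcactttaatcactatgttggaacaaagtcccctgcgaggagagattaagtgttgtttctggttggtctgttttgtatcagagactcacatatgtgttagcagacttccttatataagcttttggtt
Cyp2d10 (chr15:82407195-82407444, minus strand): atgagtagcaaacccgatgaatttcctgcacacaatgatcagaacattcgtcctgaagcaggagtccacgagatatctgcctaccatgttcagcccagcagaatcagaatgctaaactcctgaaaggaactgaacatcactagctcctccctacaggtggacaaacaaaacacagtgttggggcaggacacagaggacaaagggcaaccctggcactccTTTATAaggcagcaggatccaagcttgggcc
Cyp2j9 (chr4:96591486-96591735, minus strand): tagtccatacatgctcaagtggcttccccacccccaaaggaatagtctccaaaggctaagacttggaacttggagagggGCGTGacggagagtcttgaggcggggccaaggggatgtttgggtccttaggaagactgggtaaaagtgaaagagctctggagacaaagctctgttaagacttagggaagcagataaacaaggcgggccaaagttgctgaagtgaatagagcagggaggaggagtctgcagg
Cyp4b1 (chr4:115647722-115647971, minus strand): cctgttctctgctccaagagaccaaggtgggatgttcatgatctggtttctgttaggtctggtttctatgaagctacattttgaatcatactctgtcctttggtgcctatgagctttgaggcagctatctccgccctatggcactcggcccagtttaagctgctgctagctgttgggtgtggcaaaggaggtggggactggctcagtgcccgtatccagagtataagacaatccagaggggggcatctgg
Cyp27a1 (chr1:74713285-74713534, plus strand): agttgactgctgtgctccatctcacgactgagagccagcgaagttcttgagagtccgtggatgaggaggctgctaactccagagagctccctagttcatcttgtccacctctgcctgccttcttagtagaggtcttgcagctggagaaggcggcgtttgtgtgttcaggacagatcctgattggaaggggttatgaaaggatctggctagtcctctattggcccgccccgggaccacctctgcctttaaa
Cyp20a1 (chr1:60343050-60343299, plus strand): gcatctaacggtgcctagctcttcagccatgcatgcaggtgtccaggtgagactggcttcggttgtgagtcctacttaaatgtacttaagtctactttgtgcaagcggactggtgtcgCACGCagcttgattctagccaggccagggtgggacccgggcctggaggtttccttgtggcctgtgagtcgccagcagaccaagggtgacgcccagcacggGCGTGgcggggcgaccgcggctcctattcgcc
Searched on both strands over 300 bases, TATAAA stood in 10 of the 31 promoters and in 14.2% of 27025 promoters in the table. GCGTG stood in 11 of the 31 against 32.5% of all promoters, among them Cyp2j9, which fell, with the copy marked 171 bases before the start, and Cyp20a1, which rose, with both copies marked. Neither motif stood in the upstream sequence of Cyp27a1 or Cyp4b1 shown here. These are matches of letters and not sites.

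The nuclear receptor element AGGTCA stood in 4 of the 31 promoters, against 16% of all promoters, and those 4 were the Cyp3a genes Cyp3a11, Cyp3a25, Cyp3a44 and Cyp3a59. Cyp3a13, the remaining Cyp3a member, had none in its window. A direct repeat of the element with a spacer of any base stood in 0 of the 31 and in 0.0444% of all promoters. The stretches around the copy that reads along the gene are shown with it in capitals, to compare genes of this cluster.
Cyp3a11 (chr5:145879994-145880033, minus strand): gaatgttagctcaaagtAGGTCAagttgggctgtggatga
Cyp3a25 (chr5:146009772-146009811, minus strand): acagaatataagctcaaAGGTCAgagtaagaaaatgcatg
Cyp3a44 (chr5:145806002-145806041, minus strand): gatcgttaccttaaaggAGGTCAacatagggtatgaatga
Cyp3a59 (chr5:146079064-146079103, plus strand): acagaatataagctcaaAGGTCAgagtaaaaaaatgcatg
The copy lay 162 bases before the start in Cyp3a11, 176 in Cyp3a25, 150 in Cyp3a44 and 177 in Cyp3a59. Cyp3a25 and Cyp3a59 also held a copy on the opposite strand, 155 and 156 bases before the start.

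Length-scaled levels covered a wide range, from 0.165 CPM per kb of exon for Cyp4f39 to 387 for Cyp4f14 (mean of 16 libraries). Cyp4f14, a leukotriene and fatty acid hydroxylase, Cyp3a13, a steroid and drug oxidase, and Cyp4v3, a fatty acid hydroxylase at 67.6 CPM per kb, made up 56.8% of the summed level. Next came Cyp3a25 (63.3 CPM per kb), Cyp4f16 (53.6), Cyp4f40 (49.8) and Cyp2d26 (39.4). Cyp2c55 (27.7 CPM per kb), Cyp4b1 (27.6) and Cyp2j6 (25.7) closed the 10 highest. The order differed between groups. Cyp2c55 had 61.3, 20.9 and 12.1 CPM per kb without insulin, with insulin and under the knockout label, and was not among the 10 highest in the last. Cyp2j6 was not among the 10 highest untreated, where Cyp3a44 was, at 36.5 CPM per kb, and Cyp4v3 was not among the 3 highest in Control-STAM-INS, where Cyp4f16 was, at 67.1. Within each group, the ranges over libraries of neighbours in this order overlapped in 8, 7 and 8 of the 9 pairs among its 10 highest genes, for Control-STAM-nonINS, Control-STAM-INS and the libraries labelled ieIRKO-STAM-INS. Cyp4f14 lay wholly above Cyp3a13 in each group, and Cyp3a13 lay wholly above Cyp4f16 in Control-STAM-INS. At least 10 reads were counted in all 16 libraries for 27 members.

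**Figure D1:**
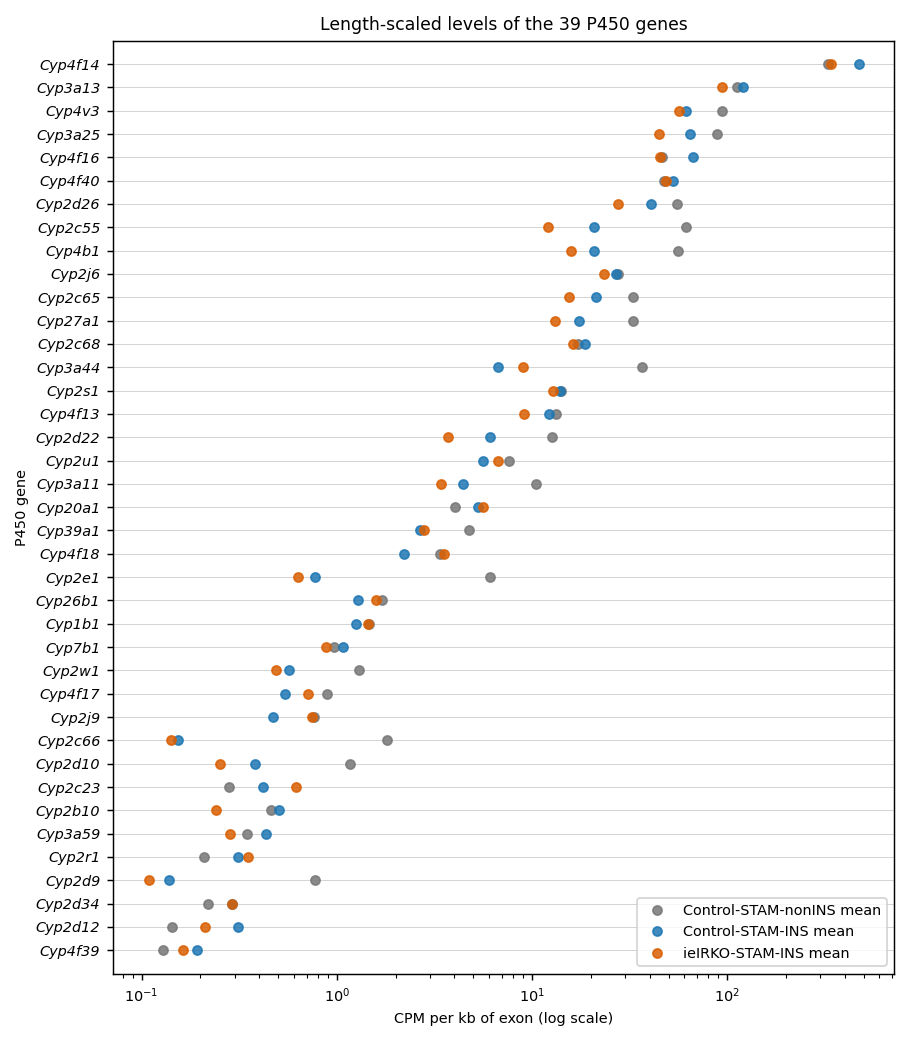
Mean level of each of the 39 P450 genes in CPM per kb of exon (log axis), with a point for each of the 3 groups. Cyp4f14 stands highest at a mean of 387 over all libraries and Cyp4f39 lowest at 0.165, and the points of Cyp2c66, Cyp2d10, Cyp2e1 and Cyp3a44 lie farther apart by group than those of Cyp2s1 or Cyp4f40.

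Just inside the rule, Cyp2c66 and Cyp4f39 reached 10 reads in 5 libraries each. Just outside, Cyp1a1, Cyp2d40 and Cyp17a1 reached it in 3. Cyp2c66 and Cyp2d9 needed Control-STAM-nonINS to meet the rule, so a difference from that group was built into their selection, and Cyp3a59 and Cyp4f39 needed Control-STAM-INS. Cyp2d9 and Cyp4f39 did not pass the filter on low counts, which left 37 members tested. Cyp2d9 had 1.94, 0.392, 0.671 and 5.2 CPM in the 4 Control-STAM-nonINS libraries and at most 0.958 CPM in the insulin-treated ones.

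Insulin treatment was examined first, in the control genotype. Of the 37 members tested, 7 fell and 1 rose at an adjusted p under 0.05 (edgeR's quasi-likelihood test, Benjamini-Hochberg over 15267 genes). The fallers were Cyp2c66, Cyp2d10, Cyp2d22, Cyp2j9, Cyp4b1, Cyp27a1 and Cyp39a1, and Cyp20a1 rose. Of all genes tested, 10.5% were called, 6.76% lower and 3.73% higher. The median log2 fold change of the 37 was -0.44, against -0.0043 over all genes. By family, 4 of 24 tested genes of families 1 to 3, 1 of 8 of family 4 and 2 of 5 of the others fell. In 5 members every insulin-treated library was below every untreated one, and in 1 above, against 6.23% and 4.40% of all genes. Without Cyp2c66 and Cyp3a59, which met the rule only through 1 group, 6 of 35 fell and 1 rose, 3 of 22 genes of families 1 to 3 fell, and 4 members lay lower without overlap.

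Cyp27a1, the mitochondrial sterol 27-hydroxylase of bile acid synthesis, had 79.0, 76.8, 63.3 and 68.2 CPM without insulin. With insulin it had a lowest value of 33.0, a median of 36.2 and a highest of 46.1 CPM. The groups did not overlap, and the log2 fold change was -0.92 (SE 0.18, edgeR adjusted p = 0.0047). Cyp39a1, the 24-hydroxycholesterol 7-alpha-hydroxylase, had 13.1, 16.2, 9.28 and 19.3 CPM against a lowest of 6.99, a median of 7.60 and a highest of 10.5 CPM. Only 1 Control-STAM-nonINS library lay within the range of the treated mice. Its log2 fold change was -0.84 (SE 0.17, edgeR adjusted p = 0.0041).

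Cyp2d22, often taken as the mouse counterpart of the human drug oxidase of the 2D subfamily, had 39.3, 31.6, 58.3 and 68.2 CPM without insulin. With insulin it had a lowest of 19.3, a median of 23.3 and a highest of 30.9 CPM. All treated libraries were lower, by a log2 fold change of -1.05 (SE 0.21, edgeR adjusted p = 0.00428), and the exact permutation test gave p = 0.00952, the smallest it can give for 4 against 6. Cyp2d10, of the same cluster, had 1.81, 1.02, 1.62 and 3.28 CPM against a lowest of 0.342, a median of 0.505 and a highest of 1.08. The groups overlapped at 1 library, the log2 fold change was -1.65 (SE 0.37, edgeR adjusted p = 0.00856), and without Control-STAM-nonINS replicate 4 it was -1.25 and no longer called. Cyp2d10 reached 10 reads in all 4 untreated libraries, 3 of 6 in Control-STAM-INS and 1 of 6 labelled ieIRKO-STAM-INS. Its place among the tested genes thus leaned on the untreated group. Of its 50-base windows, 35.8% also occur in other genes.

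Cyp4b1, which hydroxylates fatty acids and some xenobiotics, had 109, 108, 148 and 138 CPM without insulin. It had a lowest of 33.6, a median of 41.6 and a highest of 79.4 CPM with insulin. The groups did not overlap, and the log2 fold change was -1.43 (SE 0.34, edgeR adjusted p = 0.0164). Cyp2c66, of the fatty acid epoxygenase subfamily, had 22, 73, 99 and 32 reads without insulin and 0 to 17 reads with it. It met the rule only through the untreated libraries, so its lower level with insulin (log2 fold change -3.51) is a description and restates that choice, and the size rests on libraries at or under 3 counts. Of its 50-base windows, 19.5% also occur in Cyp2c65, so reads there cannot be assigned to either with certainty.

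The remaining calls were small and less stable. Cyp2j9, an epoxygenase, had 2.95, 2.82, 1.96 and 2.49 CPM against a lowest of 1.08, a median of 1.52 and a highest of 2.01 (log2 fold change -0.68, SE 0.22, edgeR adjusted p = 0.0495), and 7 of the 10 fits that left out a library lost the call. Cyp20a1, a member without a settled substrate, had 8.84, 8.86, 9.34 and 9.58 CPM against a lowest of 10.6, a median of 12 and a highest of 14. All treated libraries were higher (log2 fold change 0.40, SE 0.11, edgeR adjusted p = 0.0305), and 4 of the 10 fits lost the call.

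**Figure D2:**
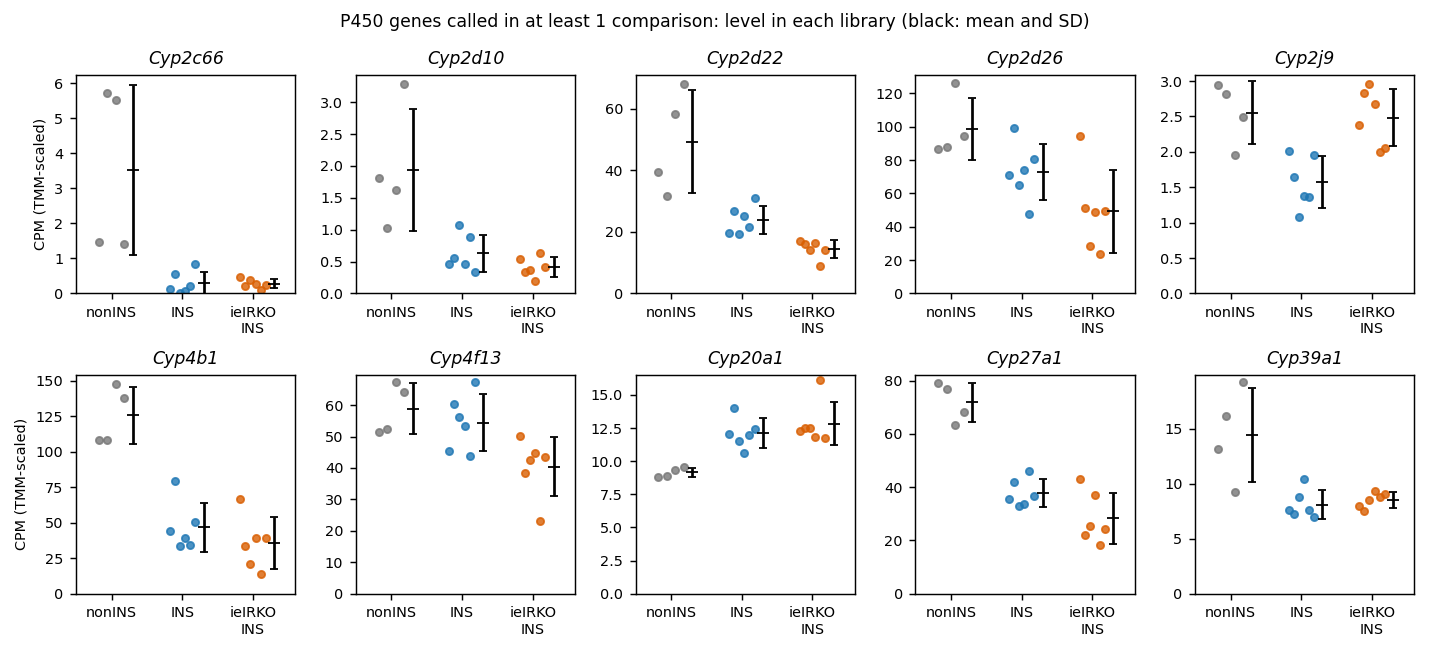
CPM of the 10 P450 genes called in at least 1 comparison, with a point for each library of the 4 untreated mice, the 6 insulin-treated control mice and the 6 mice labelled ieIRKO-STAM-INS, and the mean and SD in black. For Cyp27a1 and Cyp4b1 the untreated libraries lie above all insulin-treated ones, and for Cyp20a1 below them.

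Several highly expressed members were not called by edgeR's quasi-likelihood test. Cyp4f14 had 737, 992, 874 and 589 CPM without insulin and a lowest of 942, a median of 1154 and a highest of 1266 with it (log2 fold change 0.52, SE 0.20, edgeR adjusted p = 0.108). Cyp3a13 had a log2 fold change of 0.10 (95% confidence interval -0.55 to 0.75), and Cyp4v3 of -0.61 (-1.17 to -0.06, edgeR adjusted p = 0.149) although its groups did not overlap. Cyp4v3 was called in a fit of 2 groups alone and without ieIRKO-STAM-INS replicate 5, against 11.8% and 11.5% of all genes. For the label against untreated it had -0.74 (edgeR adjusted p = 0.0715). DESeq2, the likelihood ratio test and the fit without ieIRKO-STAM-INS replicate 1 called it there (17.5%, 14.9% and 14.9% of all genes). With insulin, Cyp3a25, Cyp4f16, Cyp4f40, Cyp2d26, Cyp2c55 and Cyp2j6 had log2 fold changes of -0.46, 0.54, 0.16, -0.44, -1.55 and -0.04. Among the others, Cyp7b1, the oxysterol 7-alpha-hydroxylase, had group means of 2.10, 2.33 and 1.90 CPM, and Cyp26b1, which clears retinoic acid, of 9.10, 6.85 and 8.44 CPM in the order untreated, insulin-treated and labelled ieIRKO-STAM-INS. The untreated values of Cyp26b1 were 3.01, 4.78, 7.21 and 21.4 CPM, and without replicate 4 their mean was 5.00 ± 2.11 (SD, n = 3), below both other group means.

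Cyp2e1, the ethanol-oxidizing enzyme, and Cyp3a44 had large differences that edgeR's quasi-likelihood test did not call. Cyp2e1 had 17.7, 1.10, 32.8 and 0.875 CPM without insulin, and 0.229 to 4.39 with it (log2 fold change -3.04, SE 1.04, edgeR adjusted p = 0.0787). DESeq2, the likelihood ratio test and the fit without Control-STAM-nonINS replicate 2 called it, against 13.6%, 11.8% and 12.1% of all genes. The label against untreated gave -3.28 (edgeR adjusted p = 0.0537), called by the same fits (17.5%, 14.9% and 12.7%). It was also called without Control-STAM-nonINS replicate 4 (12.3%) or ieIRKO-STAM-INS replicate 2 (11.8%). The 4 fat cell markers summed to 41.8, 1.33, 145 and 3.28 CPM in those 4 untreated libraries. In the insulin-treated libraries highest in these markers, Control-STAM-INS replicate 2 and ieIRKO-STAM-INS replicates 2 and 6, they summed to 78.2, 76.6 and 50.2 CPM, and Cyp2e1 had 4.39, 4.18 and 2.23 CPM. Cyp3a44 had 81.2, 111, 89.2 and 5.07 CPM and Cyp2c55 had 95.4, 187, 195 and 12.6 CPM, the last being the library low in Alpi. Their log2 fold changes were -2.44 (SE 0.76, edgeR adjusted p = 0.0562) and -1.55 (SE 0.76, edgeR adjusted p = 0.22). Without the 2 libraries lowest in Alpi, Cyp3a44 was called at -2.83 (SE 0.61, edgeR adjusted p = 0.0176), against 8.31% of all genes called, and Cyp2c55 was at -1.92 (SE 0.67, edgeR adjusted p = 0.101). For the label against untreated, Cyp2c55 had -2.34 (SE 0.77, edgeR adjusted p = 0.0602). It was called there by DESeq2, by the likelihood ratio test and without Control-STAM-nonINS replicate 4 (17.5%, 14.9% and 12.3% of all genes). Without the 2 libraries lowest in Alpi it was called at -2.53 (SE 0.71, edgeR adjusted p = 0.0443), against 10.3%. The part of fat cells in Cyp2e1 was not tested.

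**Figure D3:**
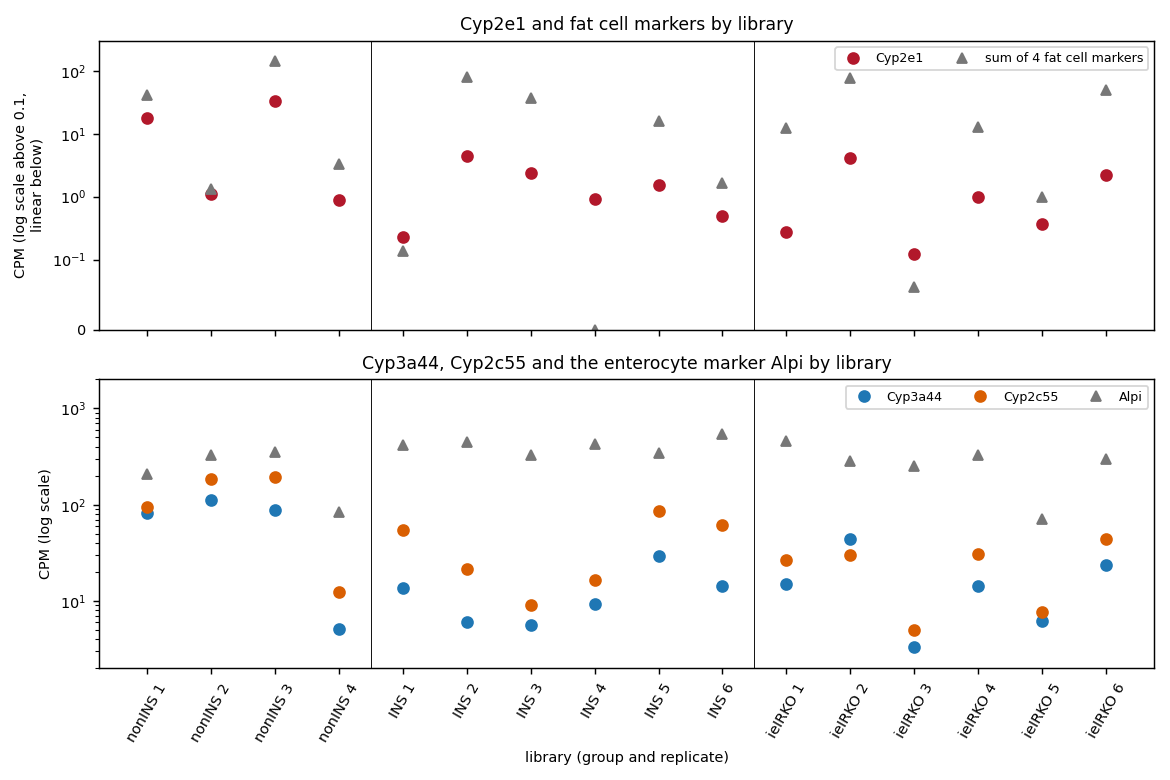
Upper panel, CPM of Cyp2e1 and of the summed fat cell markers in each library (log axis above 0.1 and linear below), and lower panel, CPM of Cyp3a44, Cyp2c55 and Alpi (log axis). Cyp2e1 is highest in Control-STAM-nonINS replicates 1 and 3, at 17.7 and 32.8 CPM, and Cyp3a44 is 5.07 CPM in replicate 4.

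The remaining tested members of families 1 to 3 were not called with insulin. Cyp3a11, a bile acid and drug oxidase controlled by Nr1i2, had 18, 76.5, 71.5 and 46.9 CPM untreated against a lowest of 3.29, a median of 20.5 and a highest of 50.6 (log2 fold change -1.24, SE 0.62, edgeR adjusted p = 0.231). Its groups overlapped widely. Cyp2s1 had 61.7 to 75.7 CPM untreated and 65.1 to 72.8 with insulin (log2 fold change -0.02, 95% confidence interval -0.35 to 0.31). Cyp1b1, an AhR target that oxidizes estrogens and polycyclic hydrocarbons, had 5.88 to 11.5 CPM against 5.39 to 10.3 (-0.22, -0.71 to 0.27). Cyp2r1, the vitamin D 25-hydroxylase, had 0.219 to 0.603 CPM against 0.471 to 0.988 (0.60, -0.30 to 1.49). Cyp2u1, a fatty acid hydroxylase, had 21.7 to 55.4 CPM against 21.7 to 42.7 (-0.46, -1.11 to 0.20). Cyp2b10, a target of Nr1i3, had 0.402 to 1.57 CPM against 0 to 1.96 (0.10, -1.58 to 1.78), an interval too wide to place it.

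In family 4, Cyp4f18, a leukotriene hydroxylase of neutrophils, had 5.22, 3.92, 4.98 and 10.9 CPM untreated against 3.37 to 4.81 with insulin (log2 fold change -0.63, SE 0.30, edgeR adjusted p = 0.194) and 3.7 to 10.8 under the knockout label. The gene overlaps Zfp961 on the opposite strand, and the strand setting of the counting is not known here. Cyp4f17 had 1.49 to 4.15 CPM against 1.38 to 2.2 (-0.72, SE 0.31, edgeR adjusted p = 0.151).

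Libraries labelled ieIRKO-STAM-INS were then compared with Control-STAM-INS, which asks what the genotype label changes under insulin. By edgeR's quasi-likelihood test, 0 of the 37 members were called, against 0.223% of all genes. At an unadjusted p under 0.05 there were 6 of 37, against 11.3% of all genes. Calls in the higher direction were 0.0393% of all genes. DESeq2 and edgeR's likelihood ratio test called 1 each, Cyp2d22, against 0.883% and 0.59% of all genes. The median log2 fold change was -0.25, against 0.017 over all genes. Cyp2d22 had a lowest of 8.81, a median of 15.2 and a highest of 16.9 CPM under the knockout label, each value being below the lowest Control-STAM-INS library at 19.3. Its log2 fold change was -0.73 (SE 0.19, edgeR adjusted p = 0.224), with p = 0.00216 in the exact permutation test, the smallest possible for 6 against 6. Such lack of overlap was seen in 0.406% of all genes in the lower direction and 0.439% in the higher direction.

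The other members, like Cyp2d22, did not pass the adjusted threshold of edgeR's quasi-likelihood test under this label. Cyp27a1 had a lowest of 18.5, a median of 24.9 and a highest of 43.2 CPM (log2 fold change -0.42, 95% confidence interval -0.77 to -0.06, edgeR adjusted p = 0.372). Cyp2j9 had 1.99 to 2.96 CPM, with a median of 2.53 (log2 fold change 0.65, 95% confidence interval 0.23 to 1.06, edgeR adjusted p = 0.29). Cyp39a1 and Cyp20a1 had log2 fold changes of 0.07 (-0.25 to 0.39) and 0.09 (-0.12 to 0.30).

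The libraries labelled ieIRKO-STAM-INS were also set beside Control-STAM-nonINS, where genotype label and insulin differ together and cannot be told apart. This comparison shares the untreated libraries with the first. Of 37 members, 8 fell and 1 rose, against 13.3% of all genes called, 7.59% lower and 5.74% higher. At an unadjusted p under 0.05 there were 18, against 29.4% of all genes. The median log2 fold change was -0.32, against 0.0088 over all genes. Cyp2c66, Cyp2d10, Cyp2d22, Cyp2d26, Cyp4b1, Cyp4f13, Cyp27a1 and Cyp39a1 fell and Cyp20a1 rose. By family, 4 of 24 tested genes of families 1 to 3, 2 of 8 of family 4 and 2 of 5 of the others fell. In 6 members all libraries lay lower and in 1 higher, against 4.76% and 3.80% of all genes. Without Cyp2c66 and Cyp3a59, 7 of 35 fell and 1 rose, 3 of 22 genes of families 1 to 3 fell, 5 members lay lower without overlap, and the median was -0.26.

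Cyp2d22 had a log2 fold change of -1.78 (SE 0.21, edgeR adjusted p = 9.68e-05) in this comparison, and Cyp27a1 of -1.34 (SE 0.19, edgeR adjusted p = 0.000382). Cyp4b1 had 14.1 to 66.8 CPM with a median of 36.3 (log2 fold change -1.82, SE 0.34, edgeR adjusted p = 0.00369). Cyp2d10 had 0.195 to 0.629 CPM with a median of 0.39 (log2 fold change -2.21, SE 0.38, edgeR adjusted p = 0.00147). These 4 genes did not overlap between the groups, but Cyp2d10 reached 10 reads in only 1 library under the label. Cyp2c66 had 2 to 7 reads (log2 fold change -3.66), again a description because the untreated libraries chose it. Cyp39a1 had 7.48 to 9.31 CPM (log2 fold change -0.76, SE 0.17, edgeR adjusted p = 0.00604), and Cyp20a1 had 11.8 to 16.2 CPM (0.49, SE 0.11, edgeR adjusted p = 0.00884).

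Cyp2d26, one of the most abundant drug-oxidase genes of the set, had 86.8, 87.8, 126 and 94.3 CPM without insulin. In the libraries labelled ieIRKO-STAM-INS it had a lowest of 23.7, a median of 49.1 and a highest of 94.2 CPM. The groups overlapped (log2 fold change -1.0, SE 0.30, edgeR adjusted p = 0.0386), and 9 of the 10 fits that left out a library lost the call. Cyp4f13, a fatty acid hydroxylase gene, had 51.3, 52.5, 67.4 and 64.2 CPM against 23.1 to 50.1 with a median of 43.1. Its groups did not overlap (log2 fold change -0.54, SE 0.17, edgeR adjusted p = 0.0403), and 5 of the 10 fits lost the call.

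**Figure D4:**
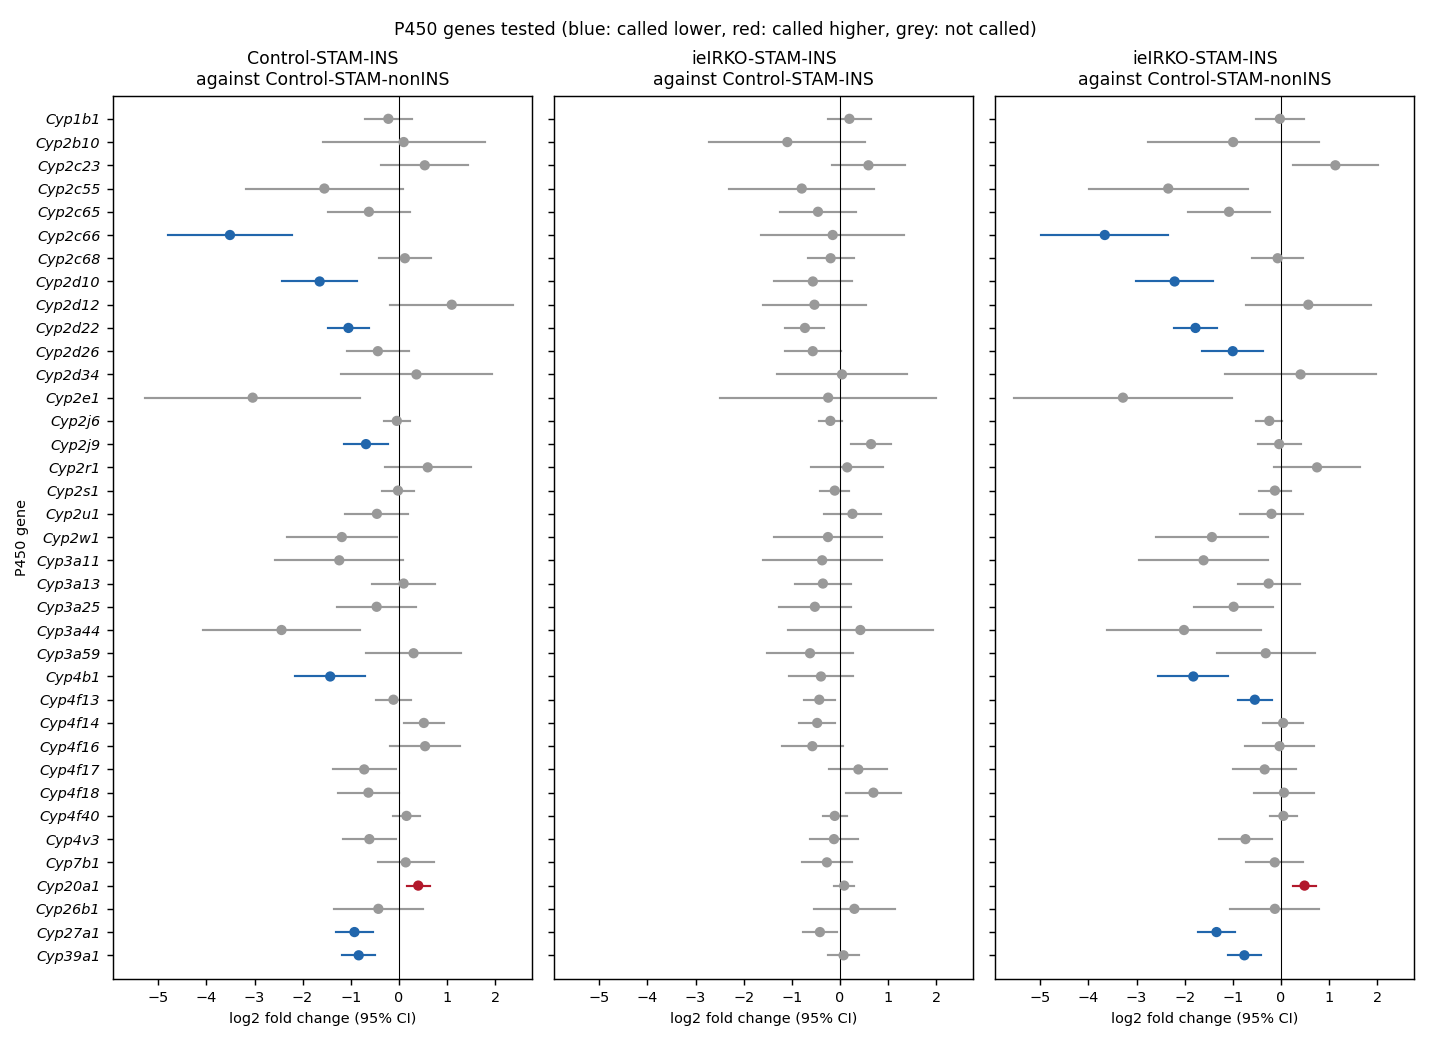
Log2 fold change and 95% confidence interval of the 37 P450 genes tested in the 3 comparisons, with genes called lower in blue, called higher in red and not called in grey. There are 8 called genes in the left panel, 0 in the middle and 9 on the right, Cyp2c66 included, which the untreated libraries chose.

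In the Cyp2d cluster on chromosome 15 (82370527 to 82794294), Cyp2d22 and Cyp2d10 fell with insulin, while Cyp2d12 and Cyp2d34 had log2 fold changes of 1.10 (SE 0.61) and 0.36 (SE 0.75) that were not called. In the Cyp2c genes on chromosome 19, Cyp2c65 and Cyp2c68 had log2 fold changes of -0.62 (SE 0.40) and 0.12 (SE 0.25) and were not called, and Cyp2c66 was chosen through the untreated libraries. By edgeR's quasi-likelihood test, 0 of the 5 Cyp3a genes on chromosome 5 were called in the 3 comparisons, against 10.5%, 0.223% and 13.3% of all genes, with 1, 0 and 3 at an unadjusted p under 0.05, against 25.4%, 11.3% and 29.4%. In both comparisons with the untreated mice, Cyp3a44 was called by DESeq2 (against 13.6% and 17.5% of all genes), by the likelihood ratio test (11.8% and 14.9%) and without the 2 libraries lowest in Alpi (8.31% and 10.3%). Of the 6 tested Cyp4f genes, edgeR's quasi-likelihood test called 0 with insulin and 0 between the insulin-treated groups. For the label against untreated it called 1, Cyp4f13. The shares of all genes were again 10.5%, 0.223% and 13.3%. With insulin Cyp4f14 was called in a fit of 2 groups alone, with the replicate block and without ieIRKO-STAM-INS replicate 5, against 11.8%, 9.15% and 11.5% of all genes. Differences between neighbours were not tested against each other, and 9 members share at least 10% of their 50-base windows with another gene.

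**Figure D5:**
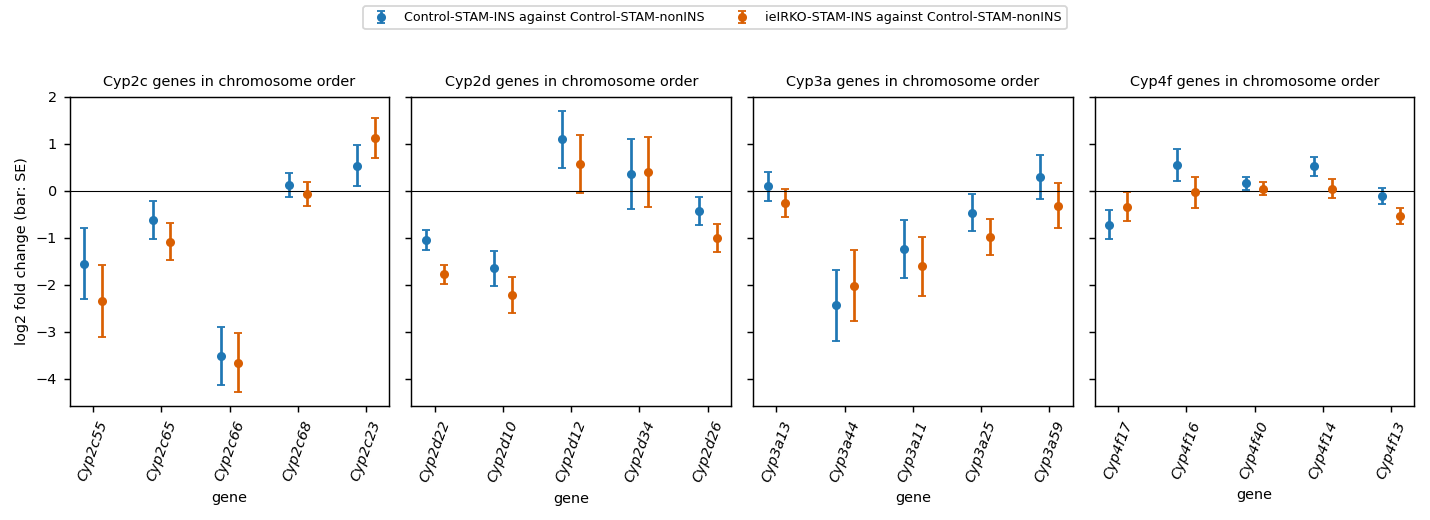
Log2 fold change with SE of tested Cyp2c, Cyp2d, Cyp3a and Cyp4f genes in chromosome order, for Control-STAM-INS (blue) and the libraries labelled ieIRKO-STAM-INS (orange), each against Control-STAM-nonINS. Cyp2d22 and Cyp2d10 lie below 0 while Cyp2d12 and Cyp2d34 lie above it.

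The genes that serve P450 enzymes were described from 5 lists, whose counts stand against 10.5% of all genes called with insulin (6.76% lower) and 13.3% for the knockout label against untreated (7.59% lower). Of 7 redox partners, 1 fell with insulin, Cyb5r3, the cytochrome b5 reductase (174 ± 27.0 CPM, SD, n = 4, to 115 ± 7.43, SD, n = 6, log2 fold change -0.59, edgeR adjusted p = 0.00068). Por had 225 ± 46.0 CPM (SD, n = 4) untreated, 132 ± 35.2 (SD, n = 6) with insulin (log2 fold change -0.77, edgeR adjusted p = 0.0707) and 110 ± 45.4 (SD, n = 6) in the libraries labelled ieIRKO-STAM-INS, where it was called lower than untreated together with Cyb5r3 (-1.03, edgeR adjusted p = 0.0166). The Por call was lost without Control-STAM-nonINS replicate 1 or 3. The median log2 fold change of the 7 was -0.18 with insulin. Of 9 heme genes, Urod and Cpox fell with insulin (-0.56 and -0.42) and Uros rose (0.52), all 3 being enzymes of heme synthesis, with a list median of -0.07. The Uros call (edgeR adjusted p = 0.0466) was lost in 8 of the 10 fits that left out a library, with log2 fold changes from 0.35 to 0.65. Urod was the 1 called in the libraries labelled ieIRKO-STAM-INS against untreated (-0.44, edgeR adjusted p = 0.0113).

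Of 11 receptors and partners, 0 were called with insulin by edgeR, against 10.5% of all genes, with 2 at an unadjusted p under 0.05, against 25.4%, and a median of -0.22. Ahr, Nr1i2 and Ppara had log2 fold changes of 0.09, 0.02 and -0.48. Nr1i3, the constitutive androstane receptor, was the 1 called in the libraries labelled ieIRKO-STAM-INS against untreated (-1.46, edgeR adjusted p = 0.0314), against 13.3% of all genes. That call was lost in 5 of the 10 fits that left out a library, those without Control-STAM-nonINS replicate 4 and without replicate 2, 4, 5 or 6 of the libraries labelled ieIRKO-STAM-INS, and the value was -0.57 in the first of these. Of 5 tested AhR targets outside the P450 genes, Ugt1a6a, a glucuronosyltransferase, fell with insulin (15 ± 3.62 CPM, SD, n = 4, to 5.62 ± 1.92, SD, n = 6, log2 fold change -1.42, edgeR adjusted p = 0.00462), with a list median of -0.15. Ahrr and Tiparp had 0.14 and -0.66 (edgeR adjusted p = 0.849 and 0.0505), and Nqo1 had -0.15 with insulin and was called at -0.45 in the libraries labelled ieIRKO-STAM-INS against untreated, as was Ugt1a6a at -1.80. The Nqo1 call was lost without Control-STAM-nonINS replicate 3. Cyp51, Tbxas1 and Ptgis, P450 enzymes whose names fall outside the pattern, were not called by edgeR in any comparison, with log2 fold changes of 0.05, 0.04 and -0.13 with insulin. Between the 2 insulin-treated groups edgeR's quasi-likelihood test called 0 genes of these lists, against 0.223% of all genes. Cpox, the coproporphyrinogen oxidase of heme synthesis, had 26.3 ± 1.72 CPM under the knockout label against 20.8 ± 1.53 in Control-STAM-INS (SD, n = 6 each), with no overlap (log2 fold change 0.34, SE 0.07, edgeR adjusted p = 0.0799), and was called by DESeq2 and by the likelihood ratio test, against 0.883% and 0.59% of all genes.

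Cyp2d22, the member with the smallest adjusted p over the 3 comparisons (in the knockout label against untreated), was compared with the other 15266 genes tested. Across the 16 libraries its log2 CPM was most like that of Acsf2 (Pearson r = 0.942), Cryl1 (0.931), Gdpd2 (0.93), Rnd2 (0.917) and Gstm3 (0.904). These correlations are over libraries of 3 groups that share the group differences, and are a description.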

How the data were processed

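Ileal total RNA from 16 mice was sequenced. The authors used CLC Genomics Workbench and the GRCm38 genome, and deposited whole-number counts of reads per gene, without normalization. Strand use and the treatment of reads that map to several genes are not given in the sources used here. All libraries were used, and groups came from the labels. With edgeR 4.0.16 in R 4.3.3, genes were filtered by filterByExpr (minimum count 10, minimum total 15; 15267 of 22872 genes with a count), scaled by TMM and fitted in a robust quasi-likelihood model of the 3 groups, with Benjamini-Hochberg adjustment over all genes tested. SE is the log2 fold change divided by the square root of F, and 95% confidence intervals use the t quantile at the degrees of freedom of that test. Log2 CPM used a prior count of 2. Exact permutation tests were two-sided (210 arrangements for 4 against 6 libraries, 924 for 6 against 6). Counts of 3 or fewer were taken as the limit of detection. Intervals cover counting error and the spread between mice. Exon lengths and positions came from GENCODE for GRCm38, and promoters from RefSeq for GRCm38.p6.

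The members and lists were chosen with earlier results of these data known. Named genes were all members called, the 10 highest per length, uncalled members of other families, called list members, Ahr, Ahrr, Tiparp, Nqo1, Por, Nr1i2, Ppara, Cyp51, Tbxas1, Ptgis, Insr and the 5 genes most like Cyp2d22. Cyp2e1, Cyp3a44, Cyp3a11, Cyp2s1, Cyp1b1, Cyp2r1, Cyp2u1, Cyp2b10, Cyp4f17, Cyp4f18, Cyp2c65, Cyp2c68, Cyp2d12, Cyp2d34, Cyp2d9, Cyp4a10 and Cyp4a14 were named after their values were seen. Alternatives were DESeq2 1.42.0, upper-quartile normalization, other filters, a fit of 2 groups alone, edgeR's likelihood ratio test, the replicate number as a block and leaving out libraries. The scripts were tested on simulated data. The list of P450 pseudogenes had 0 listed members.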

Additional observations from a re-analysis of the deposited data

Results flagged for a closer look

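Dixon's ratio, the gap of the highest or lowest library to its neighbour divided by the range of its group on the log2 CPM scale, was above its 95% critical value in 9 of 117 tests over 39 genes and 3 groups, where chance gives about 5.85. In Control-STAM-nonINS it was 0.905 for Cyp2c23, with replicate 1 lowest, and 0.899 for Cyp3a44, with replicate 4 lowest. In Control-STAM-INS it was 0.63 for Cyp3a13, with replicate 2 highest, and 0.715 for Cyp3a25, with replicate 3 lowest. In the libraries labelled ieIRKO-STAM-INS, replicate 5 was lowest in Cyp2d22 (0.735) and Cyp4f13 (0.659) and highest in Cyp2d34 (0.639) and Cyp20a1 (0.797), and replicate 1 was highest in Cyp3a59 (0.65).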

How the results depend on the processing

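The number of P450 genes called with insulin in the control genotype ran from 6 to 10 over all alternatives (against 5.34% to 13.6% of all genes), and leaving out a library gave 6 to 9. Between the 2 insulin-treated groups it was 1 by DESeq2 and 1 by the likelihood ratio test (0.883% and 0.59% of all genes), and 0 elsewhere, leaving out each library included. In the libraries labelled ieIRKO-STAM-INS against untreated it was 15 by the likelihood ratio test (14.9% of all genes), 7 to 13 under the other alternatives (6.92% to 17.5%), and 7 to 11 on leaving out a library (7.09% to 14.9%). None of the called genes, list counts or medians recomputed here reversed. Of 94 differences of P450 genes that edgeR's quasi-likelihood test did not call, 13 were called under at least 1 alternative, each with its sign kept, and 27 turned sign under at least 1, never with a call. The order of the Cyp26b1 group means turned without Control-STAM-nonINS replicate 4. Of 319 values of single P450 genes under alternatives 275 kept their call and 44 lost it, and of 247 for list genes 220 kept it and 27 lost it. A rule of 10 counts in every library kept 27 members and a rule of 1 library 46. Without the 2 libraries lowest in Alpi, chosen after seeing the data, 7, 0 and 9 P450 genes were called in the 3 comparisons. Of all genes, 8.31%, 0.215% and 10.3% were called there. Without the members that met the rule only through 1 group, also an added choice, the counts were 7, 0 and 8, against 10.5%, 0.223% and 13.3%.

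Replicate numbers did not pair the libraries, since correlations of their deviations ran from -0.0943 to 0.179. With the replicate block 7, 0 and 8 P450 genes were called, against 9.15%, 0.197% and 10.6% of all genes. With insulin, DESeq2 called 13.6% of all genes, the likelihood ratio test 11.8% and the fit of 2 groups alone 11.8%. Upper-quartile normalization called 10%, and the fit without the libraries lowest in Alpi 8.31%. For the label against untreated these shares were, in that order, 17.5%, 14.9%, 6.92%, 13.3% and 10.3%, and 8.32% without ieIRKO-STAM-INS replicates 2 and 3. For redox partners the count with insulin was 3 by DESeq2 (leaving out a library, 1 to 2). It was 2 with upper-quartile normalization, a fit of 2 groups alone, the likelihood ratio test, the block or without the libraries lowest in Alpi. For the label against untreated it was 1 without ieIRKO-STAM-INS replicates 2 and 3 (1 to 3). For heme genes it was 1 by DESeq2 and the likelihood ratio test between the insulin-treated groups, and for the label against untreated 2 by DESeq2 and 0 without the libraries lowest in Alpi. For receptors with insulin it was 2 with the block and 1 without the libraries lowest in Alpi (0 to 1). For receptors under the label against untreated it was 3 by DESeq2 and without the libraries lowest in Alpi, and 2 by the likelihood ratio test and the block. It was 0 with only the groups compared or without ieIRKO-STAM-INS replicates 2 and 3 (0 to 4). For AhR targets with insulin it was 2 by DESeq2, upper-quartile normalization, the likelihood ratio test and without the libraries lowest in Alpi (1 to 2), and under the label against untreated 1 with only the groups compared (1 to 3). The cause of these changes was not tested. Genes under 10 reads in a library are limited by depth, since 10 reads were 0.437 to 0.785 CPM after TMM, depending on the library.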

Other observations

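Cyp1a1, the classical AhR target, did not meet the rule. It had 9, 2, 26 and 7 reads in the Control-STAM-nonINS libraries, 2, 5, 4, 2, 5 and 64 in Control-STAM-INS, and 3, 0, 3, 0, 9 and 18 under the knockout label. Cyp4a10, a Ppara target that hydroxylates fatty acids, had 8, 0, 13 and 15 reads untreated and 0 to 3 reads in every insulin-treated library. Cyp4a14, of the same subfamily, had 16, 0, 0 and 1 reads untreated and 0 to 3 in the insulin-treated libraries. Of the 55 P450 names outside the rule, 19 had 0 reads in every library.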
